A study of Homo sapiens with 5 samples.

Results

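Peaks of H2A acetylated at lysine K130 (H2A-K130ac) that lay in an intron after the first intron of a transcript are described here, in C4-2B cells that received abiraterone or Romidepsin. A peak was chosen when the authors' annotation placed it in an intron and gave its number i among the n introns of the transcript, with i of at least 2. Such later-intron peaks numbered 19394 of 67806 annotated peaks in the abiraterone list and 24791 of 91398 in the Romidepsin list, or 44185 of 159204 in all. The choice used the label only, not the fold or the p-value of a peak.

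The study measured H2A-K130ac by chromatin immunoprecipitation and sequencing in prostate cancer cells. C4-2B is an established human prostate cancer line derived from LNCaP, although the sample labels name breast cancer for it. One group received abiraterone, which blocks CYP17A1, an enzyme of androgen synthesis, and the other Romidepsin, which inhibits histone deacetylases. Each group had 1 library with 1 peak list, no untreated C4-2B library was analysed here, and the file names say that both lists were called over input, whereas the study's methods name a vehicle control. The dose and time for these libraries are not given in the sources used here, because the labels carry the text for the VCaP line (Romidepsin at 0.5 µM) and the design text names 18 h. With 1 library per treatment no test between treatments was possible, and every interval printed is an exact 95% interval of counting error only. Neighbouring peaks are not independent, so these intervals are too narrow as a measure of error. The depth behind a peak is unknown, since the lists hold no read counts.

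An intron is the stretch of a gene that is transcribed and then spliced out of the RNA. Most of the length of long human genes is intron, and early introns tend to be longer than those that follow. The first intron often holds regulatory elements near the promoter, while later introns hold scattered enhancers as well as long stretches without known function. Acetylation of histone tails by acetyltransferases is reversed by histone deacetylases, the enzymes that Romidepsin blocks. No peak sequence is printed, because no genome of the build of the lists (hg19) was used.

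Later-intron peaks made up 28.6% of the abiraterone list (28.3 to 28.9%) and 27.1% of the Romidepsin list (26.8 to 27.4%). They outnumbered the first-intron peaks, of which there were 7452 and 9850, and were fewer than the distal intergenic peaks, of which there were 32829 and 43827. In strength they were like the rest of their list. Their median fold over the control, as the authors' peak caller gave it, was 2.83 in the abiraterone list and 2.61 in the Romidepsin list. Every class of peaks had these same medians, so they separate classes poorly. The upper quartile of fold was 3.49 against 3.58 for all other abiraterone peaks, and 3.48 against 3.47 for all other Romidepsin peaks. The highest fold was 16.1 in the abiraterone and 9.46 in the Romidepsin list. The median width was 337 bp (quartiles 139 and 435 bp) and 344 bp (214 and 455 bp), respectively.

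At a −log10 q-value of at least 2, which is a q-value of 0.01 or less, 4787 later-intron peaks remained in the abiraterone list (24.7%, 24.1 to 25.3%), beside 24.9% of all its peaks. Among the Romidepsin peaks 733 remained (2.96%, 2.75 to 3.18%), beside 2.73% of all its peaks. Most later-intron peaks therefore carried a q-value above 0.01, as did most peaks of any class. The ratio of abiraterone to Romidepsin later-intron peaks was 0.782 over all peaks and 6.53 over those that met this q-value, so which list held more of them turned with the threshold. Counts of 1 list are thus set against the other list below only as numbers of called peaks, not as amounts of the mark.

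The later-intron peaks were assigned to the gene or transcript named in the intron label, called the host gene here. There were 5806 hosts in the abiraterone list and 6997 in the Romidepsin list, 8651 in either and 4152 in both, which was 71.5% of the abiraterone and 59.3% of the Romidepsin hosts. Protein-coding genes hosted 94.5% and 93.9% of the peaks with a gene identifier, and long non-coding RNA genes 4.79% and 5.16%. The start site nearest to a later-intron peak belonged to another gene than the host in 27.1% of abiraterone peaks and 29.4% of Romidepsin peaks. For first-intron peaks this share was 12.2% and 13.0%, a contrast that the choice by intron number favours, since later-intron peaks lie beyond the first intron of their host. When the nearest start was that of the host, it lay at a median distance of 38.9 kb and 34.2 kb from the peak. The label could also mislead on the host. PDGFRA, a growth factor receptor, was given 13 abiraterone and 43 Romidepsin peaks, all through 1 transcript (uc003haa.3), and these peaks ran from chr4:54331448 to chr4:55148645. The nearest start was that of another gene, among them LNX1, CHIC2 and GSX2, for 13 of the 13 and 40 of the 43 peaks. PPP2R2A, a regulatory subunit of a protein phosphatase, owed its 23 and 31 peaks to a transcript of 1000 kb, whereas its other transcripts in the lists spanned 81.2 and 79.5 kb.

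The relative position of a peak was taken as i/n, which runs from just above 0 in early introns to 1 in the last intron. The median i/n was 0.5 in both lists, with quartiles of 0.273 and 0.778 in the abiraterone list and 0.28 and 0.8 in the Romidepsin list. Early introns held more peaks than their number alone would give. Intron 2 held 4806 of the abiraterone peaks (24.8%, 24.2 to 25.4%) and 6235 of the Romidepsin peaks (25.2%, 24.6 to 25.7%). In transcripts with at least 5 introns it held 20.02% and 19.93%, against 9.78% and 9.88% if introns 2 to n had held equal numbers. Intron 3 held 14.5% and 14.3% of the peaks in these transcripts, and intron 4 held 10.8% in both lists, which was nearer to the equal share. The last intron held 11.7% of abiraterone peaks (11.2 to 12.1%) and 13.2% of Romidepsin peaks (12.8 to 13.6%), below the 15.03% and 15.60% of equal numbers. Intron lengths were not used here, so how far the excess in early introns follows from their length was not tested.

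**Figure D1:**
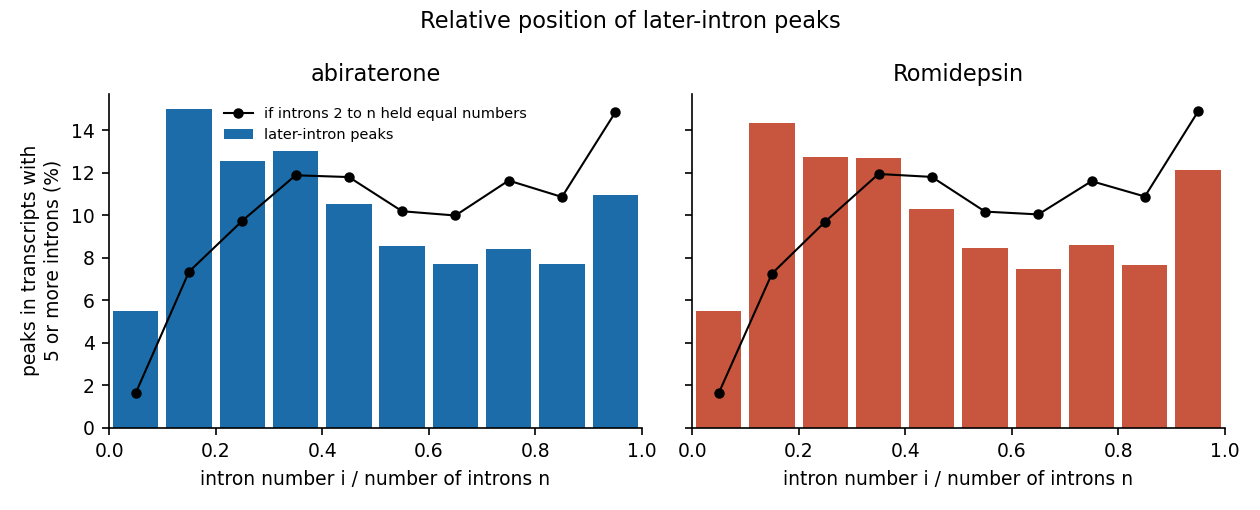
Share of later-intron peaks (vertical axis, %) in each of 10 equal classes of i/n (horizontal axis), for transcripts with 5 or more introns, in the abiraterone list (left) and the Romidepsin list (right). Bars are the peaks and the black points the share if introns 2 to n held equal numbers. In the abiraterone list the bar from 0.1 to 0.2 held 14.99% against 7.36%, and the last bar 10.95% against 14.85%.

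The mean i/n gave the same picture, at 0.530 and 0.541 in the abiraterone and Romidepsin lists against 0.616 and 0.619 for equal numbers. Along the gene itself the peaks sat farther from the start. Measured from the start site as a share of gene length, their median place was 0.594 for 17513 abiraterone peaks and 0.605 for the Romidepsin peaks. First-intron peaks had their median at 0.229 and 0.239, a contrast that the choice by intron number sets and that is no finding. With the gene cut into 10 equal stretches, stretch 1 held 2.93% of the abiraterone later-intron peaks and stretch 9 held 13.4%. Later-intron peaks leave out the first intron and peaks within 3 kb of a start site. A low stretch 1 and a median beyond 0.5 are therefore set at least in part by the choice, and no expected value was computed. Over peaks, i/n and the place along the gene had a rank correlation of 0.573 in the abiraterone list and 0.574 in the Romidepsin list, a description only, since both are read from 1 annotation and many peaks share a gene.

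Later-intron peaks were found mainly in long genes. Of 17715 genes with usable limits in the annotation, 28.2% held at least 1 later-intron peak in the abiraterone list and 33.9% in the Romidepsin list. A gene had limits only if its start was the nearest for at least 1 peak of either list. These 17715 genes are meant by all genes below. Among genes under 10 kb the share was 0.883% and 1.73%, among genes of 30 to 100 kb it was 41.7% and 51.6%, and among those of 300 kb to 1 Mb it was 96.2% and 95.3%. Host genes had a median length of 98.1 kb and 81.1 kb, and genes without such a peak 12.1 kb and 10.6 kb. The rank correlation of gene length with the number of later-intron peaks was 0.647 and 0.668 over the 17715 genes, which share 1 library in each list.

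The number of peaks also rose per unit of whole gene length, up to 1 Mb. Genes under 10 kb held 2.70 later-intron peaks per Mb of gene in the abiraterone list, genes of 30 to 100 kb held 13.0, genes of 300 kb to 1 Mb held 18.8, and genes over 1 Mb held 16.6. The Romidepsin densities in the same order were 5.04, 17.0, 22.3 and 19.5 per Mb. Genes over 300 kb thus had 1.42 times the density of genes of 30 to 100 kb in the abiraterone list (1.36 to 1.48) and 1.28 times in the Romidepsin list (1.23 to 1.33). At a −log10 q-value of at least 2 the ratio was 1.42 (1.30 to 1.54) in the abiraterone list. For the Romidepsin peaks it was 1.13 (0.909 to 1.402) at that threshold, an interval that holds 1. The density of all peaks within gene limits went the other way. It fell from 35.8 per Mb in genes under 10 kb to 23.1 in genes over 1 Mb in the abiraterone list, and from 66.8 to 26.6 in the Romidepsin list. Genes whose start was nearest to no peak are missing here, which can raise the densities of short genes, so this fall is not that of all annotated genes. Later-intron peaks labelled to the genes, set against all peaks within their limits, rose from 7.56% to 72.02% and from 7.55% to 73.29%. Peaks within limits were counted whatever gene their label named, and more than once where genes overlap, so this is not a strict share. Peaks within 3 kb of a start site are labelled as promoter peaks, which keeps a larger part of a short gene out of the later-intron class. The length used includes exons and the first intron, and genes were kept whatever their number of introns. A gene without a second intron cannot hold a later-intron peak. Low values in short genes, both the densities and the shares of genes with a peak, may thus be set in part by the definition.

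**Figure D2:**
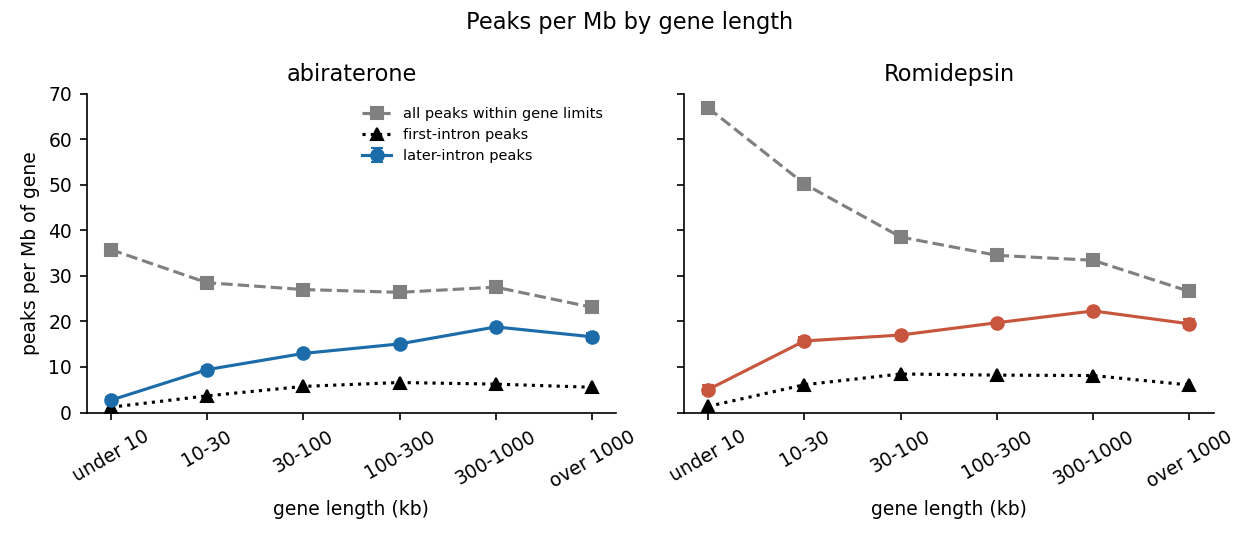
Peaks per Mb of gene (vertical axis) by gene length in kb (horizontal axis, 6 length classes) in the abiraterone list (left) and the Romidepsin list (right). Coloured circles are later-intron peaks with exact 95% Poisson intervals, mostly smaller than the circle, black triangles are first-intron peaks and grey squares all peaks within gene limits. Later-intron density rose from 2.70 to 18.8 per Mb at 300 kb to 1 Mb in the abiraterone list while the density of all peaks fell. Genes whose start was nearest to no peak of either list are not included.

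The 715 genes over 300 kb held 42.4% of the abiraterone and 39.4% of the Romidepsin peaks counted here, with 34.9% of the gene length. It took 743 genes in the abiraterone list and 813 in the Romidepsin list to gather 50% of the peaks, and 1970 and 2478 genes held exactly 1. Length was no guarantee of a later-intron peak. Of the 715 genes, 26 held none in the abiraterone list and 32 held none in the Romidepsin list. ASIC2, an acid-sensing ion channel of 1144 kb, held 0 and 1 later-intron peaks but 24 and 32 first-intron peaks. NRG1, a ligand of ERBB receptors, held 3 and 0 later-intron and 16 and 18 first-intron peaks. RORA, a nuclear receptor, held 2 and 0 later-intron and 26 and 42 first-intron peaks. In these genes the peaks were thus labelled almost throughout to the first intron.

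The abiraterone peaks lay in 11213 introns and the Romidepsin peaks in 14213, and 4690 introns held a peak of each list, which was 41.8% of the abiraterone and 33.0% of the Romidepsin introns. Exactly 1 peak was held by 7231 and 9749 of these introns. Introns with at least 2 peaks held 62.7% and 60.7% of the peaks, and 81 and 143 introns held at least 10. The median gap between neighbours in 1 intron was 5804 bp in the abiraterone list and 7138 bp in the Romidepsin list. Some neighbours stood much closer. Of the abiraterone later-intron peaks 30.8% (30.2 to 31.5%) had another peak of their list within 1 kb, beside 30.3% (29.9 to 30.8%) of all other peaks. Of the Romidepsin peaks the shares were 17.6% (17.1 to 18.1%) and 18.4% (18.1 to 18.6%). Peaks with such a neighbour were narrow, with a median width of 126 bp in the abiraterone later introns against 374 bp for those without one, and of 165 against 357 bp in the Romidepsin list. Merging peaks within 1 kb in an intron left 16555 and 22785.

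The fullest single introns by label held more than 20 peaks each. In the abiraterone list intron 3 of 7 of SOX2-OT, a long non-coding RNA gene that overlaps SOX2, held 24 peaks over chr3:180897399-181260352, against 9 in the Romidepsin list. Intron 3 of 5 of IMMP2L, a mitochondrial inner membrane peptidase subunit, held 23 over chr7:110613470-111126643, against 7. Intron 4 of 10 of the read-through gene IQCJ-SCHIP1 held 22 over chr3:159078369-159471538, against 7. These 3 introns were fuller in the abiraterone list, which the choice by abiraterone counts favours. Intron 2 of 3 of a TENM2 transcript, a teneurin adhesion protein, held 21 abiraterone and 29 Romidepsin peaks, and intron 7 of 10 of the long PPP2R2A transcript held 23 and 31. The Romidepsin peaks were most numerous in intron 12 of 23 of the PDGFRA label, with 42 against 13, and intron 8 of 8 of WWOX, an oxidoreductase gene at a common fragile site, with 38 over chr16:78469185-79182698 against 15. Intron 5 of 11 of SMYD3, a lysine methyltransferase, held 29 over chr1:246109918-246456495, against 11.

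The genes with most later-intron peaks in the abiraterone list were all very long, from 813 kb in EXOC4 to 2305 kb in CNTNAP2. DLG2, a scaffold protein of the postsynaptic density (chr11:83166056-85338314), led with 55 peaks and held 44 in the Romidepsin list. CNTNAP2, an adhesion protein of the neurexin family, held 50 and 38. EXOC4, a subunit of the exocyst that tethers vesicles (chr7:132937823-133750513), held 46 and 22. These 3 genes had more peaks in the abiraterone than in the Romidepsin list, and for EXOC4 the exact 95% Poisson intervals, 33.7 to 61.4 and 13.8 to 33.3, did not overlap. Such a gap in unscaled counts was seen in 10.9% of the 395 genes with at least 20 later-intron peaks over both lists. The genes were picked for their high abiraterone counts, which favours an excess in that list and such a gap. NRXN3, a presynaptic adhesion protein, held 44 and 68, and AGBL4, a carboxypeptidase of tubulin tails, 43 and 53. CTNNA3, an alpha-catenin, held 43 and 21. The last 4 of the 10 were PTPRD, a receptor phosphatase, with 42 and 35, CNTN5, a contactin, with 41 and 14, RAD51B, a homologous recombination protein, with 41 and 46, and RBFOX1, a splicing factor, with 40 and 43. PCDH15, a protocadherin, also held 40 abiraterone peaks and came after RBFOX1 only by its lower density. Per 100 kb of gene these 10 ranged from 1.83 peaks in PTPRD to 5.66 in EXOC4, beside 1.51 over all genes.

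In the Romidepsin list PTPRN2, a phosphatase-like protein of secretory vesicles (chr7:157331750-158380482), led with 82 peaks and held 26 in the abiraterone list. MACROD2, an ADP-ribose hydrolase (chr20:13976146-16033841), held 69 and 18. CAMTA1, a transcription activator (chr1:6845384-7829766), held 65 and 31. For each of these the intervals of the 2 unscaled counts did not overlap, the closest being those of CAMTA1 at 50.2 to 82.8 and 21.1 to 44.0. The genes were picked for their high Romidepsin counts and the Romidepsin list is the larger, both of which favour such a gap. Of the 395 genes with at least 20 later-intron peaks over both lists, 10.9% had one in either direction. Multiplied by 0.782, the ratio of the list totals, the CAMTA1 count of 65 becomes 50.8. No intervals were computed for scaled counts, so whether the CAMTA1 gap outlasts scaling was not tested. CTNNA2, another alpha-catenin, held 53 Romidepsin and 26 abiraterone peaks, WWOX 49 and 20, SMYD3 47 and 19, and SNX29, a sorting nexin, 44 and 21. DLG2 also held 44 Romidepsin peaks and came after SNX29 only by its lower density. NRXN3, AGBL4 and RAD51B, and DLG2 if that tie is counted, were among the fullest genes of both lists. PTPRN2 had the highest density of the 56 genes over 1 Mb in the Romidepsin list, 7.82 peaks per 100 kb against a median of 2.05, followed by WWOX with 4.40. In the abiraterone list CNTN5 was highest at 3.06, with a median of 1.66. All 82 Romidepsin peaks in PTPRN2 had the start of another gene as the nearest start, as had all 26 abiraterone peaks.

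**Figure D3:**
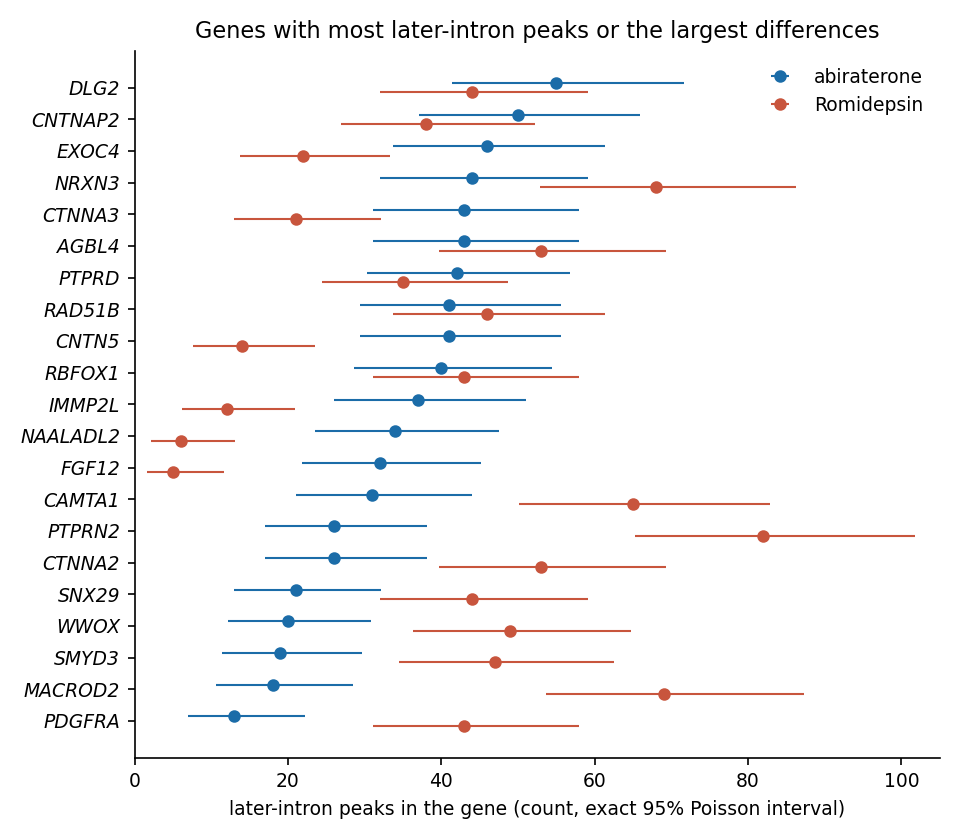
Later-intron peaks (horizontal axis, count with exact 95% Poisson interval) in the 10 fullest genes of each list and the genes with the largest differences, with 1 point per list and gene. DLG2 had 55 abiraterone peaks and PTPRN2 82 Romidepsin peaks, and the PDGFRA value rests on a transcript label that spans neighbouring genes.

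These counts were spread over several introns. The 55 abiraterone peaks in DLG2 carried 15 intron labels, of 4 transcripts, and came to 45 after merging within 1 kb. The 82 Romidepsin peaks in PTPRN2 carried 14 intron labels, with 21 peaks in intron 12 of 22, and came to 72. The 69 in MACROD2 came to 64, with 21 in intron 5 of 16. Few met the stricter q-value in the Romidepsin list. PTPRN2 kept 2 of 82 peaks, MACROD2 kept 1 of 69 and CAMTA1 kept 1 of 65. In the abiraterone list DLG2 kept 12 of 55 peaks, CNTNAP2 14 of 50 and EXOC4 10 of 46. Of all peaks, 2.73% of the Romidepsin and 24.9% of the abiraterone list met this q-value, so the contrast is one between the lists, not these genes.

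The Romidepsin counts were multiplied by 0.782, the ratio of the totals, to rank differences between the lists. The largest excess in the abiraterone list was in CNTN5, with 41 and 14 unscaled peaks, NAALADL2, a peptidase-like gene, with 34 and 6, EXOC4, with 46 and 22, FGF12, an intracellular fibroblast growth factor homologue, with 32 and 5, and IMMP2L, with 37 and 12. The largest excess in the Romidepsin list was in PTPRN2, MACROD2, CAMTA1, the PDGFRA label and WWOX. Of 395 genes with at least 20 later-intron peaks over both lists, 56 (14.2%) held at least 2 times more in the abiraterone list after scaling and 45 (11.4%) at least 2 times more in the Romidepsin list.

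These differences were grouped by chromosome. Of the 56 genes, 31 lay on chromosomes 3 and 7. Chromosome 3 gave 18 of its 42 genes of this size, 11 of which start beyond 150 Mb, among them NAALADL2, FGF12, SOX2-OT, NLGN1, a postsynaptic adhesion protein, with 31 abiraterone and 12 Romidepsin peaks, and LPP, a protein of focal adhesions, with 22 and 7. FNDC3B, a fibronectin-domain gene at chr3:171757418-172118492 that was picked out after its values were seen, held 22 (13.8 to 33.3) and 0 (up to 3.69). Chromosome 7 gave 13 of its 35 genes, among them EXOC4, IMMP2L, FOXP2, a transcription factor, and HDAC9, a class IIa deacetylase, with 29 and 17. The 45 genes fuller in the Romidepsin list were more spread, over 17 chromosomes. They were 8 of the 24 genes of this size on chromosome 4, 6 of 35 on chromosome 2 and 4 of 8 on chromosome 20. The X chromosome gave 3 of 10, and chromosomes 1, 6, 10 and 11 also gave 3 each. Among those on the X chromosome was DMD, the dystrophin gene, with 10 abiraterone and 32 Romidepsin peaks.

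The other peaks of the 2 lists showed the same chromosomes apart. The ratio of abiraterone to Romidepsin later-intron peaks was 0.782 (0.768 to 0.797) in all, and that of all other peaks 0.727 (0.718 to 0.735). On chromosome 3 the ratios were 1.30 (1.21 to 1.39) and 1.27 (1.21 to 1.33), and on chromosome 7 they were 1.05 (0.977 to 1.13) and 0.962 (0.915 to 1.01). The X chromosome had 0.428 and 0.448. Chromosome 19 had the lowest later-intron ratio, 0.407 (0.332 to 0.497), beside 0.548 (0.496 to 0.606) for other peaks. Over 23 chromosomes the 2 ratios had a rank correlation of 0.929, and the points share both libraries. The later-intron interval lay above that of the other peaks on chromosomes 1 and 6 and below it on 0. Within chromosome 3 the later-intron ratio was 0.962 from 0 to 50 Mb, 1.09 from 50 to 100 Mb, 1.21 from 100 to 150 Mb and 2.17 beyond 150 Mb, beside 0.814, 1.09, 1.29 and 2.12 for other peaks.

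**Figure D4:**
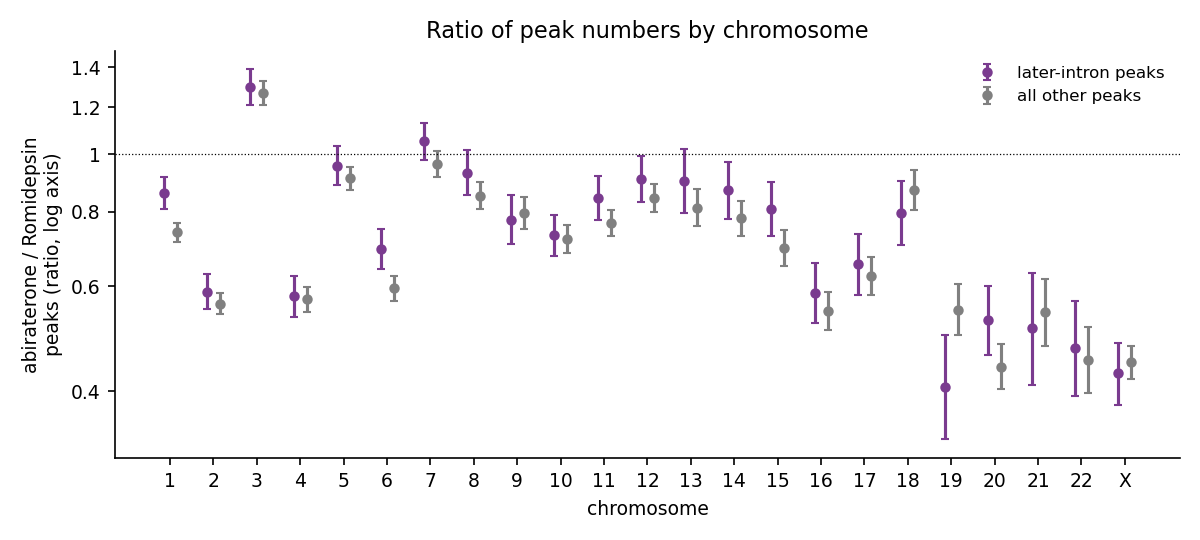
Ratio of abiraterone to Romidepsin peaks (vertical axis, log scale) by chromosome (horizontal axis, Y left out), for later-intron peaks (purple) and all other peaks (grey), with exact 95% intervals of the counts. Chromosome 3 stood at 1.30 and 1.27 and chromosome 19 at 0.407 and 0.548, and the dotted line marks equal numbers.

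The surroundings of a gene moved with its later-intron peaks. For 365 genes with at least 20 later-intron peaks over both lists and usable limits, the peaks of all other classes within 2 Mb on either side were counted. Of these 365 surroundings 275 (75.3%) held more Romidepsin peaks and 88 (24.1%) more abiraterone peaks, whatever the gene held. Of the 217 genes with more Romidepsin than abiraterone later-intron peaks, 199 (91.7%) also had more Romidepsin peaks around them. Of the 131 genes with more abiraterone peaks, 66 (50.4%) also had more abiraterone peaks around them. Across the 365 genes the log2 ratios of gene and flanks had a Pearson correlation of 0.64 and a rank correlation of 0.62. This is a description, since the genes share both libraries and some share their flanks. NAALADL2 had 93 abiraterone and 35 Romidepsin peaks in its flanks, FGF12 152 and 91, and IMMP2L 144 and 70. PTPRN2, near the end of chromosome 7, had 86 and 131, and MACROD2 50 and 84. HYDIN, a gene of the axoneme of cilia, went against its surroundings, with 21 abiraterone and 4 Romidepsin peaks inside it and 53 and 97 around it. This gene has a near-identical copy elsewhere in the genome, so reads assigned to it are uncertain. What part the local number of called peaks has in the differences between genes was not tested.

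**Figure D5:**
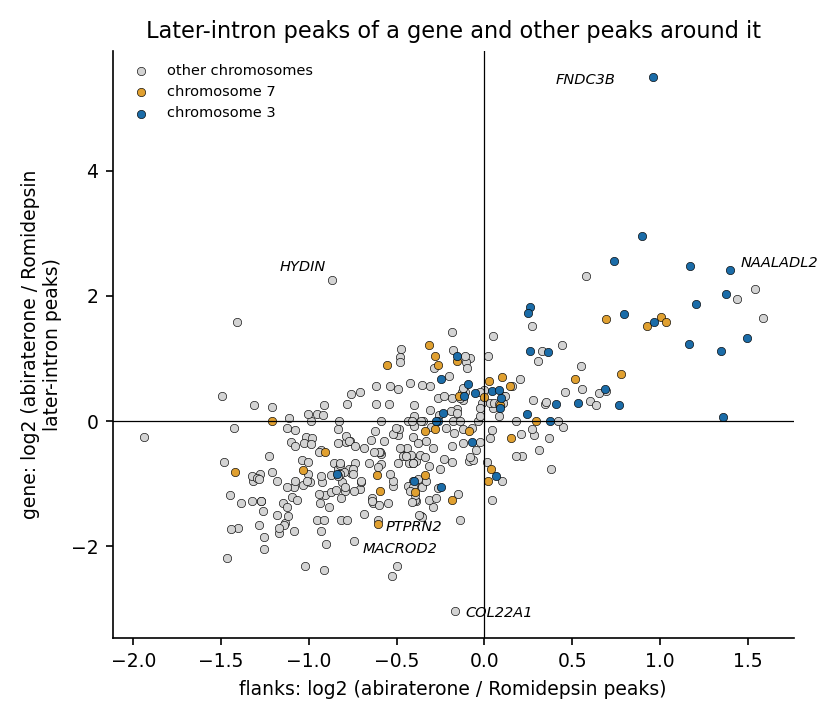
For 365 genes, the log2 ratio of abiraterone to Romidepsin later-intron peaks in the gene (vertical axis) against that of all other peaks within 2 Mb on either side (horizontal axis), each with 0.5 added to both counts. Points are genes, those on chromosome 3 in blue and on chromosome 7 in orange, and 199 of the 217 genes with more Romidepsin peaks had flanks to the left of 0, as had 275 of all 365 genes. The value of FNDC3B, with 0 Romidepsin peaks, depends on the 0.5 added.

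Among genes with at least 5 later-intron peaks the densest were short. In the abiraterone list they were CCDC136, a coiled-coil gene, with 5 peaks in 30.1 kb (16.6 per 100 kb), PRKAR1A, a regulatory subunit of protein kinase A, with 6 in 39.5 kb (15.2), PROX1, a homeobox transcription factor, with 6 in 53.6 kb (11.2), AQP9, a water and glycerol channel, with 5 in 47.7 kb (10.5), and CLVS2, a lipid-binding protein, with 7 in 67.5 kb (10.4). The Romidepsin list held 2, 0, 6, 0 and 1 peaks in the same genes. PROX1 alone of these was as dense in both lists. In the Romidepsin list the densest were UGT3A2, a glycosyltransferase, with 6 peaks in 31.9 kb (18.8 per 100 kb), VSIG10 with 7 (17.3), TLX1NB with 7 (16.7), BPIFB4 with 5 (16.5) and P2RX3, an ATP-gated ion channel, with 5 (15.8). The abiraterone list held 1, 1, 0, 1 and 1. Merging peaks within 1 kb left 3 of the 6 in UGT3A2 and 3 of the 5 in AQP9, so some of these densities rest on close neighbours.

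The later-intron peaks of highest fold were single sites. In the abiraterone list they lay in FAM168B, at chr2:131832846-131833085 in intron 2 of 6 with a fold of 16.1, in DNAJC11, a mitochondrial chaperone-like protein, at chr1:6707140-6707325 with 14.2, in ZNF385D, a zinc finger gene, at chr3:22205495-22205737 with 13.98, in RABGAP1L, a regulator of Rab GTPases, with 12.3, and in NBEA, neurobeachin, with 10.4. The FAM168B peak ranked 2 by fold in its whole list. In the Romidepsin list they lay in PCED1B, at chr12:47605438-47605609 in intron 2 of 3 with 9.46, in DENND5A, an activator of Rab GTPases, at chr11:9183626-9183793 with 9.30, in CYP1A2, a cytochrome P450 of xenobiotic metabolism, at chr15:75044860-75045222 with 9.30, in KSR2, a scaffold of MAP kinase signalling, with 7.84, and in TNRC6B, a protein of microRNA silencing, with 7.84. None of these 10 was overlapped by a peak of the other list, which few peaks were in any case, 4.04% of all abiraterone and 2.9% of all Romidepsin peaks. Folds were not scaled between libraries and are not compared across the lists.

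Few sites were shared at all. Of the abiraterone later-intron peaks 774 (3.99%, 3.72 to 4.28%) shared at least 1 bp with a Romidepsin peak, beside 4.04% of all abiraterone peaks. Of the Romidepsin later-intron peaks 738 (2.98%, 2.77 to 3.20%) did, beside 2.9% of all Romidepsin peaks. Both shares were near those of all peaks. The overlapped abiraterone peaks lay in 630 hosts, 513 of which had 1. The most in any host was 4, in 8 genes, namely ATXN7L1, CAMTA1, DNAH11, a dynein of cilia, IMMP2L, NRXN3, NTM, an adhesion protein, SLIT3, an axon guidance ligand, and SMYD3. In ATXN7L1 these were 4 of 14 abiraterone peaks, and in NRXN3 4 of 44. A −log10 q-value of at least 2 in both lists was met by 8 overlapping pairs. One of them lay in intron 27 of 33 of KALRN, a guanine nucleotide exchange factor, at chr3:124200546-124201044 in the abiraterone list and chr3:124200842-124201357 in the Romidepsin list, with folds of 4.66 and 4.97. Another lay in intron 77 of 77 of PKHD1L1, with folds of 4.48 and 5.95.

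Of 6 gene lists, the 2 made of very long genes held a later-intron peak in every gene. So did 96.2% (abiraterone) and 95.3% (Romidepsin) of all genes of 300 kb to 1 Mb, and 98.2% in both lists of those over 1 Mb. These 2 length classes held 18.8 and 22.3, and 16.6 and 19.5, later-intron peaks per Mb. The nearer background for these 2 gene lists is thus that of long genes, not that of all genes. The 20 long genes at common fragile sites held 526 abiraterone and 572 Romidepsin peaks, which was 1.95 and 2.11 per 100 kb, beside 1.51 and 1.92 over all genes. Besides the genes above they included FHIT, a dinucleotide hydrolase, with 37 in each list. The 30 genes of synaptic adhesion and axon guidance held 555 and 630 peaks, or 1.77 and 1.96 per 100 kb. Among them were PCDH15, with 40 and 29, SLIT3, with 23 and 40, and CTNND2, a delta-catenin, with 28 in each list. The intervals of the 2 counts did not overlap for 5 of the 20 and 5 of the 30 genes, beside 10.9% of the 395 genes with at least 20 later-intron peaks over both lists.

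The 3 lists tied to the biology of the drugs and the list of prostate cancer drivers held fewer peaks in number, though not always fewer per 100 kb. Over all genes 28.2% held a later-intron peak in the abiraterone list and 33.9% in the Romidepsin list. The median gene length of these 4 lists was between 43.9 and 86.2 kb, and among all genes of 30 to 100 kb the shares were 41.7% and 51.6%. In the list of steroid-responsive and prostate genes 10 of 23 genes held a peak in the abiraterone list and 9 in the Romidepsin list, with 39 and 37 peaks (2.00 and 1.90 per 100 kb). TMEFF2, a transmembrane protein of prostate and brain, held 6 and 11, ZBTB16, a zinc finger transcription factor, 8 and 7, GRHL2, an epithelial transcription factor, 9 and 4, FKBP5, a co-chaperone of steroid receptors, 4 and 0, and TMPRSS2, a serine protease, 3 and 3. The short genes KLK2 and KLK3 held 0 in both lists. In the list of sterol and fatty acid synthesis 8 and 15 of 28 genes held 26 and 33 peaks (1.36 and 1.81 per 100 kb). ACACA, an acetyl-CoA carboxylase, held 8 and 2, ACACB, its mitochondrial relative, 6 and 3, ME1, malic enzyme, 3 and 7, ELOVL6, a fatty acid elongase, 4 and 3, and ACSL1, an acyl-CoA synthetase, 1 and 6. SREBF1, the sterol-regulated transcription factor gene of 25.7 kb, held 0 in both, as did FASN.

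In the acetylation list 9 and 13 of 25 genes held 51 and 50 peaks (1.77 and 1.73 per 100 kb). HDAC9 held 29 and 17 of these, followed by HDAC4, another class IIa deacetylase, with 4 and 8, NCOA1, a nuclear receptor coactivator, with 6 and 4, and HDAC8, a class I deacetylase, with 2 and 6. Of the acetyltransferase genes KAT6A held 3 and 2, KAT2B 3 and 1, KAT6B 2 and 2 and CREBBP 0 and 1, while KAT2A, KAT5, KAT7, KAT8 and EP300 held 0 in both lists. In the list of prostate cancer drivers 12 of 19 genes in each list held 36 and 46 peaks (1.48 and 1.56 per 100 kb), with ZFHX3, a homeobox gene, at 5 and 10, FOXP1, a forkhead gene, at 6 and 8, NCOR1, a corepressor, at 0 and 6, and BRCA2, a recombination protein, at 5 and 0. In these 4 lists 0 genes had intervals of the 2 counts that did not overlap, beside 0.76% of all genes with a later-intron peak, and the interval reaches 3.69 for a count of 0.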

How the data were processed

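ChIP-seq for H2A-K130ac in C4-2B was analysed from 1 peak list per treatment. The labels give 2 µg of antibody, 300 bp fragments and paired-end reads of 75 bases at 40 to 50 M reads per sample. The authors deposited narrow peaks called with MACS2, each with a score, a fold over the control (input by the file names) and −log10 p- and q-values, and the same peaks annotated with genes. Only the folds and −log10 values were used, to rank or filter within a list. The annotation tool and whether duplicates were pooled are not given in the sources used here. The study's methods name a vehicle control and broad peaks, which these lists are not. The processing notes name hg38, but the last peak on chromosome 1 ends at 249191832, beyond that chromosome in hg38, and the transcript identifiers are those of hg19, so positions were read as hg19. The 3 VCaP samples were not used.

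Intron labels were split into transcript, gene, i and n. The limits of a gene were the outermost ends of its transcripts in the annotated tables. These give limits only for the gene of the nearest start of each peak, so genes nearest to no peak had none. Of 18248 genes with limits, 533 were left out of the length counts because intron peaks lay outside them, and a further 158 genes had several loci or transcripts far apart and were given none. The remaining 17715 held 16982 and 21645 later-intron peaks. Symbols and gene types came from RefSeq GRCh38.p14, which matched 5550 of 5564 abiraterone and 6705 of 6720 Romidepsin host identifiers; no position was taken from it. Intervals are exact (Clopper-Pearson for shares, Poisson for counts, conditional for ratios). The scripts were tested on simulated lists. Python 3.11.15, numpy 2.4.6, scipy 1.17.1, pandas 2.3.3 and matplotlib 3.10.9 were used.

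Named genes were, per list, the 10 with most later-intron peaks, the 5 densest with at least 5 peaks, the 5 with the largest scaled difference, the hosts of the 5 peaks of highest fold and of the 5 fullest introns, the 5 hosts with most overlapped peaks (8 were tied), SREBF1, and up to 6 genes of each of 6 lists with most peaks or with 0, some of which are not reported here. Other genes were named after their values were seen: ASIC2, NRG1, RORA, FNDC3B, HYDIN, LPP, FOXP2, DMD, NLGN1, KALRN and PKHD1L1. The members, lists and rules were chosen with earlier results of these data known. The alternatives tried were peaks with a −log10 q of 2 or more, the 5000 peaks of highest fold, merging of close peaks, the 50000 of highest −log10 p, overlap of at least 50% of both peaks, other gene limits and length classes, and no X and Y.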

Additional observations from a re-analysis of the deposited data

How the results depend on the processing

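No paired analysis was possible because both treatments have a single library, and for the same reason no library could be left out. Of 45 alternatives to 17 values, 12 moved a value by less than its counting interval or a count by less than 1.5 times, 31 moved it by more, and 2 turned the direction of the ratio of abiraterone to Romidepsin peaks. At a −log10 q of at least 2 the later-intron peaks numbered 4787 (abiraterone) and 733 (Romidepsin), and their ratio went from 0.782 to 6.53, so that the abiraterone list held more. It was 1.03, also above 1, with the 50000 peaks of highest −log10 p in each list, where ties were broken at random. Equal numbers per list take away the difference in list size, so this value compares only the later-intron shares and cannot test the direction of the counts. At the same q threshold the Romidepsin values became 29.4% of all peaks, a median i/n of 0.538, 11.5% in the last intron, a long to mid-length density ratio of 1.13 and 25.7% with the nearest start in another gene, and the shares overlapped fell to 0.167% (abiraterone) and 1.09% (Romidepsin). Overlap of at least 50% of both peaks gave 1.34% and 1.05%. The later-intron share was 28.0% and 27.7% among the 5000 peaks of highest fold, and 67.6% and 65.8% of intron and exon peaks alone. Median i/n was 0.524 and 0.562 with 1 value per intron, and 0.594 and 0.605 as a share of gene length. In transcripts covering at least 90% of the gene limits, an alternative chosen after seeing the data, it was 0.467 in the abiraterone list. The last intron held 6.92% and 8.06% in transcripts with 5 or more introns. The density ratio was 1.25 and 1.15 by the limits of the labelled transcript, and 1.34 and 1.22 with genes kept whose peaks lay outside their limits, also chosen after seeing the data. With host genes with limits only, 25.9% and 28.1% had the nearest start in another gene. Of the 10 fullest genes, 3 (abiraterone) and 2 (Romidepsin) were still among the 10 at the q threshold, and 5 (Romidepsin) when peaks went to the gene of the nearest start. The cause of these shifts was not tested. The lists hold no read counts, so what depth limits is unknown.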

Other observations

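Some later-intron labels named a transcript without a gene identifier, 748 in the abiraterone and 957 in the Romidepsin list. The fullest was uc002rbu.1 on chromosome 2, with 5 introns and 22 peaks in each list. One label on chromosome 14, uc031qqx.1, has 4910 introns and took 17 abiraterone and 23 Romidepsin peaks over chr14:106006606-107261010, and uc031rxg.1 on chromosome 22 has 450 introns and took 5 and 23. The p-values were also coarse: the 4 commonest −log10 p-values accounted for 40.7% of the abiraterone and 60.3% of the Romidepsin later-intron peaks.

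Chromosome 7 was divided along its length. The ratio of abiraterone to Romidepsin later-intron peaks was 0.817 from 0 to 50 Mb, 1.21 from 50 to 100 Mb, 1.33 from 100 to 150 Mb and 0.580 beyond 150 Mb, beside 0.851, 0.960, 1.19 and 0.652 for all other peaks. EXOC4 and IMMP2L lie in the third stretch and PTPRN2 in the last.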
